A study of Mus musculus with 9 samples.

Results

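Transcript levels of 9 brown adipocyte genes, Ucp1, Cidea, Slc36a2, Elovl3, Dio2, Prdm16, Zic1, Otop1 and Pank1, were followed across 9 mouse heart libraries, to ask whether Ucp1 rose together with the other genes of brown fat. The genes were taken by name, with earlier results of these data known, and each of the 9 had a row among the 41710 gene names of the deposited tables. The level of a gene is given as reads and as TPM (reads per transcript length, set to a common sum per library), added up over its transcripts. The hearts came from male FVB/N mice aged 8 months, with 3 libraries of Tg-RKIP mice, 3 labelled Tg-GRK2 and 3 of non-transgenic FVB controls. The labels name no treatment. The RKIP transgene was under control of the alpha-MHC promoter, which is active in cardiac muscle cells. The promoter and the species of the GRK2 transgene are not given in the sources used here. Whole hearts were pulverised, so a library holds RNA of every cell type of the heart and of any tissue attached to it. In such bulk samples, more cells of a type and more RNA per cell cannot be told apart. The study presented Ucp1 as raised in Tg-RKIP hearts, so its difference from FVB in the same libraries is not independent evidence.

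Brown adipocytes burn fatty acids to make heat. Noradrenaline from sympathetic nerves acts on beta-adrenergic receptors, of which Adrb3 is the adipocyte form, and through cyclic AMP raises lipolysis and the transcription of Ucp1, whose protein lets protons leak across the inner mitochondrial membrane. Heart muscle shares much of the oxidative machinery of brown fat but makes no heat through Ucp1, and fat cells lie on the outer surface of the heart and around the great vessels. Of the 9 genes, Ucp1 is the uncoupling protein itself and Dio2 makes active thyroid hormone inside the cell. Cidea coats lipid droplets, Elovl3 lengthens very long chain fatty acids, Slc36a2 carries small amino acids, Pank1 catalyses the first step of coenzyme A synthesis and Otop1 is a proton channel. Prdm16 and Zic1 are transcription factors, the first a regulator of brown adipocyte fate and the second a marker of classical brown depots and of the developing nervous system.

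The libraries held 25458108 to 33447654 reads on transcripts. The targeted gene of the RKIP line, Pebp1, stood at 16198 ± 208 TPM in Tg-RKIP against 325 ± 4.54 TPM in FVB (SD, n = 3 each). Grk2 was at 27.3 ± 2.90 TPM in the Tg-GRK2-labelled libraries and 27.1 ± 1.05 TPM in FVB (SD, n = 3 each), with a log2 fold change of 0.05 (adjusted p = 0.354, edgeR's quasi-likelihood test), so those libraries are named by their label. Tg-GRK2 1 stood apart from its group. Its counts differed from those of Tg-GRK2 2 and 3 with a chi-square per degree of freedom of 19.0 and 23.2, where these 2 differed from each other with 1.95 and from the FVB libraries with 10.5 to 12.8, so results of the group are also given without it. Mitochondrial genes took 11.5% to 11.8% of the reads in Tg-RKIP, 22.4% to 22.9% in the Tg-GRK2-labelled libraries and 22.9% to 23.2% in FVB. With TMM normalization the median log2 fold change of all 15504 genes tested was 0.01 in Tg-RKIP against FVB, but it was 0.38 with scaling to library size alone and 0.43 in log2(TPM + 0.1) over 13478 genes. Levels below are TPM and differences are log2 fold changes of TMM-normalized counts, so a TPM ratio of Tg-RKIP to FVB lies above the fold change of the counts.

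As deposited on GRCm39, the build in the submitters' processing notes, Ucp1 lies at chr8:84016981-84025081 on the plus strand, Dio2 at chr12:90691326-90705212 on the minus strand and Otop1 at chr5:38433316-38461552 on the plus strand. Slc36a2 lies at chr11:55049296-55075903 (minus), Elovl3 at chr19:46120336-46124133 (plus) and Pank1 at chr19:34784340-34856855 (minus). Prdm16 lies at chr4:154400582-154721330 (minus) and Zic1 at chr9:91240111-91247863 (minus). Ucp1, Cidea and Dio2 have 1 transcript each in the tables, Pank1 has 4 and Prdm16 has 13. The rule by which the authors divided shared reads between transcripts is not given in the sources used here. Exons of 4 genes overlap a gene on the other strand, Dio2 with Gm26512, Elovl3 with Pitx3, Prdm16 with B230104I21Rik and Zic1 with Zic4. These partners held 18, 132, 0 and 3 reads in all 9 libraries together, and whether the counting used strand is not given, so Elovl3 and Zic1, with few reads of their own, are the uncertain ones.

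The 250 bases before the transcript start are shown for Ucp1, Dio2 and Otop1, the 3 genes with the largest rise, and for both starts of Pank1, the gene with the largest fall. They were read from RefSeq on GRCm38.p6, another build than that of the deposited positions, 5′ to 3′ on the strand of the gene. Windows were found for 6 of the 9 genes (7 windows). Capitals mark TGACG or its reverse complement CGTCA (the core of the cyclic AMP response element, CRE), TATAAA or its reverse complement TTTATA, and TATATA.
Ucp1, chr8:83290098-83290347, plus strand: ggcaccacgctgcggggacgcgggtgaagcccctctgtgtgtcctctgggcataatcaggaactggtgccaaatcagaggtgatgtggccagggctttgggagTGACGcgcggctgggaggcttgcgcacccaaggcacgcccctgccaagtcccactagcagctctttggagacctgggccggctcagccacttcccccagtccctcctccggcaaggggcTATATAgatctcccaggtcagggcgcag
Dio2, chr12:90739039-90739288, minus strand: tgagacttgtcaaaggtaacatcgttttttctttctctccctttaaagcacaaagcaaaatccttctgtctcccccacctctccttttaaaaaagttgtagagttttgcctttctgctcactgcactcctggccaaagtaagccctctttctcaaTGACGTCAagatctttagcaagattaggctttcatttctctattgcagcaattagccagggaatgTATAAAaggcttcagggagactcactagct
Otop1, chr5:38277154-38277403, plus strand: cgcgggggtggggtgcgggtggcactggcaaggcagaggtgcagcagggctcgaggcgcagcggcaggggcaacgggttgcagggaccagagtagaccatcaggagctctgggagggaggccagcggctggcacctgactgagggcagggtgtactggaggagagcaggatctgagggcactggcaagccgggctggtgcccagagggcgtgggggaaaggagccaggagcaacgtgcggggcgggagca
Pank1, downstream start, chr19:34877918-34878167, minus strand: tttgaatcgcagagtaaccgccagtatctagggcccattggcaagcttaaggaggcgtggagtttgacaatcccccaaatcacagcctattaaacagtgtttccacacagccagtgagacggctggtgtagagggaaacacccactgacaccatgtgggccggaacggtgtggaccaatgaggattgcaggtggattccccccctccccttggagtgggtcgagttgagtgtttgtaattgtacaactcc
Pank1, upstream start, chr19:34879456-34879705, minus strand: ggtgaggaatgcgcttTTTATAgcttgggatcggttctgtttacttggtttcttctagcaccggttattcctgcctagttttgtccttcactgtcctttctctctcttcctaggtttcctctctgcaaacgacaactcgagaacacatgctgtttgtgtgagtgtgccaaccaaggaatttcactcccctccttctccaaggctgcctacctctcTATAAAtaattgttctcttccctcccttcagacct

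The Ucp1 window held TGACG at 147 to 143 bases before the start and TATATA at 28 to 23 bases before it. The Dio2 window held the palindromic CRE, TGACGTCA, at 95 to 88 bases before the start and TATAAA at 30 to 25 bases before it. No marked motif was found in the Otop1 window. The upstream Pank1 window held TATAAA at 35 to 30 bases before the start and TTTATA at 234 to 229 bases before it, and the downstream one none of the marked motifs. Of 32851 such windows of mouse transcripts, 17.8% held TGACG on either strand, 1.55% TGACGTCA (which contains TGACG), 12.4% TATAAA and 5.25% TATATA. These matches describe letters in the window and were not tested as sites.

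The 7 of the 9 genes that passed the expression filter all differed between Tg-RKIP and FVB hearts at an adjusted p under 0.05 (edgeR's quasi-likelihood test, Benjamini-Hochberg over all genes tested), against 73.9% of all genes. None of the 7 overlapped between these groups, beside 75.7% of all genes. Overlap of groups in a single gene refers to TMM-normalized counts, unless another scale is named. They went in both directions. Ucp1, Otop1, Dio2 and Cidea rose, beside 36.8% of all genes, and Slc36a2, Prdm16 and Pank1 fell, beside 37.1%. With 73.9% of all tested genes called in Tg-RKIP against FVB, a call by itself sets the 7 little apart. What the list shows is the size and direction of each gene. With scaling to library size alone the same 4 genes rose and the same 3 fell, while the calls over all genes went from 5709 higher and 5751 lower to 9710 higher and 2649 lower. Elovl3 and Zic1 did not pass the filter. In the Tg-GRK2-labelled libraries, 4 of the 7 genes rose (Ucp1, Otop1, Prdm16 and Slc36a2) and none fell, beside 12.2% of all genes higher and 12.2% lower (24.5% called in all). The same 4 did not overlap with FVB, beside 37.1% of all genes. Without Tg-GRK2 1 the same 4 were called, with log2 fold changes of 2.21 for Ucp1, 1.93 for Otop1, 0.38 for Prdm16 and 0.27 for Slc36a2, while 3193 rather than 3793 of all genes were called. In Tg-RKIP against Tg-GRK2 all 7 differed, beside 74.5% of all genes, with the same 4 higher (37.9%) and the same 3 lower (36.6%) as against FVB, and none overlapped (76.4%). All 7 were also called there without Tg-GRK2 1. Both comparisons with FVB use the same FVB libraries, and the values of each gene are therefore set side by side.

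**Figure D1:**
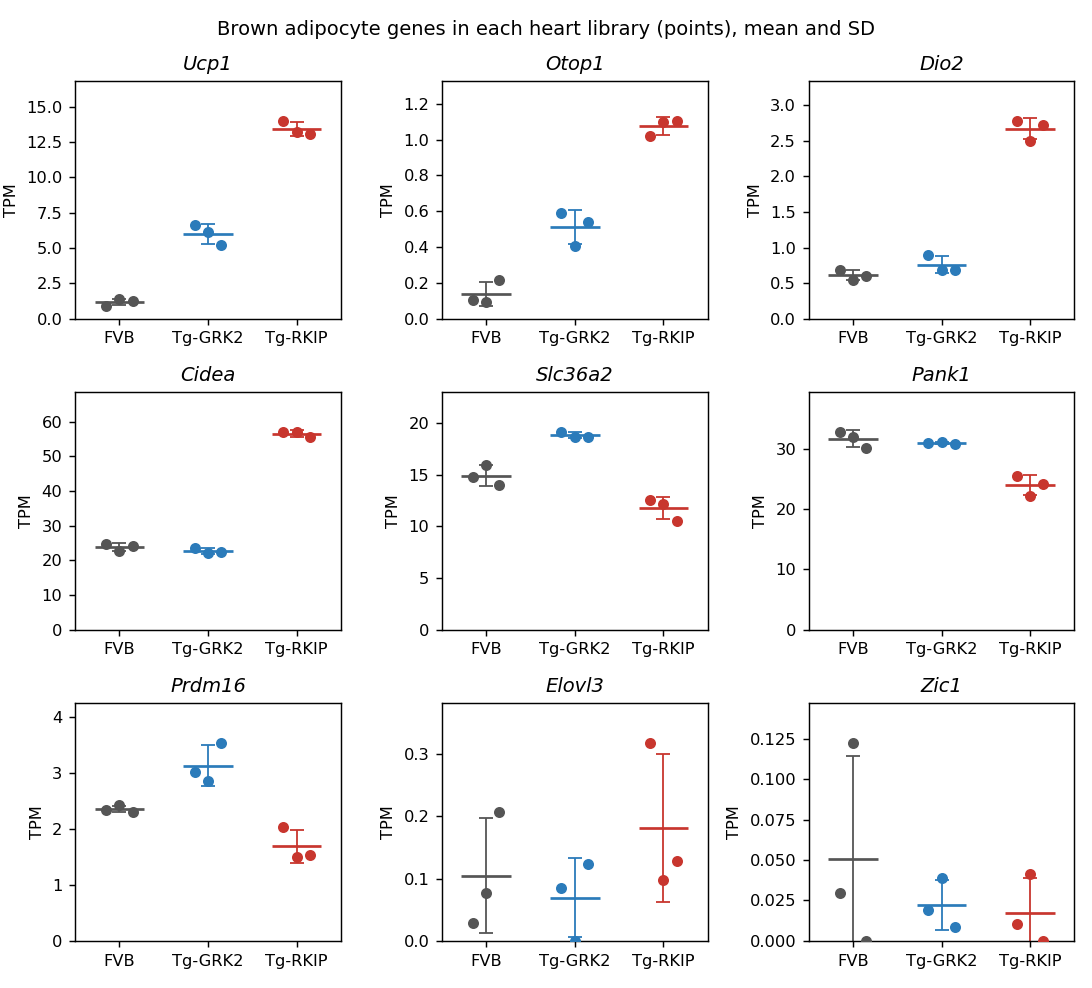
TPM (y axis of each panel, on its own scale from 0) of the 9 brown adipocyte genes in each heart library of the FVB, Tg-GRK2 and Tg-RKIP groups, with 1 point per library, the mean as a line and the SD as an error bar (cut at 0 where it passes below). Ucp1 and Otop1 step up from FVB over Tg-GRK2 to Tg-RKIP, Dio2 and Cidea stand high in Tg-RKIP alone, and Slc36a2, Pank1 and Prdm16 are lowest in Tg-RKIP.

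Ucp1 was counted at 384, 469 and 354 reads in the Tg-RKIP libraries, at 205, 184 and 184 in the Tg-GRK2-labelled ones and at 27, 46 and 37 in FVB. Its level was 13.4 ± 0.51 TPM in Tg-RKIP, 6.01 ± 0.70 TPM in the Tg-GRK2-labelled libraries and 1.18 ± 0.24 TPM in FVB (SD, n = 3 each). The 3 groups did not overlap, and each FVB library lay far below every transgenic one. The log2 fold change was 3.08 ± 0.12 (SE) in Tg-RKIP against FVB, an 8.47-fold rise (edgeR adjusted p = 1.14e-15), and 2.28 ± 0.14 (SE) in Tg-GRK2 against FVB, a 4.87-fold rise (edgeR adjusted p = 5.15e-11). Tg-RKIP hearts were also higher than the Tg-GRK2-labelled libraries, by 0.80 ± 0.09 (SE) on the log2 scale (edgeR adjusted p = 3.94e-08). Among the 15504 genes tested, Ucp1 had rank 154 from the highest log2 fold change in Tg-RKIP against FVB and rank 64 in Tg-GRK2 against FVB. The TPM of each Tg-RKIP library stood at 11.4 ± 0.43 times the FVB mean (SD, n = 3).

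Otop1, the proton channel, was counted at 53, 74 and 57 reads in Tg-RKIP, at 28, 23 and 36 in the Tg-GRK2-labelled libraries and at 5, 6 and 10 in FVB. It followed the order of Ucp1, with no overlap between the groups.
Its level was 1.08 ± 0.05 TPM in Tg-RKIP, 0.513 ± 0.096 TPM in the Tg-GRK2-labelled libraries and 0.138 ± 0.067 TPM in FVB (SD, n = 3 each). The log2 fold change was 2.74 ± 0.28 (SE) in Tg-RKIP against FVB (edgeR adjusted p = 1.71e-08) and 1.93 ± 0.32 (SE) in Tg-GRK2 against FVB (edgeR adjusted p = 8.53e-05). Tg-RKIP exceeded the Tg-GRK2-labelled libraries by 0.81 ± 0.22 (SE, edgeR adjusted p = 0.00209), a call that was lost against a minimum fold change of 1.5 (adjusted p = 0.191). With 5 to 10 reads per FVB library, the size of these changes rests on few counts. The other otopetrins, Otop2 and Otop3, were at 0 reads in every library.

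Dio2, the deiodinase that activates thyroid hormone, was counted at 271, 315 and 263 reads in Tg-RKIP, at 99, 73 and 86 in the Tg-GRK2-labelled libraries and at 72, 66 and 63 in FVB. It stood high in Tg-RKIP only, and the Tg-GRK2-labelled libraries overlapped with FVB in TMM-normalized counts. The levels were 2.67 ± 0.15, 0.759 ± 0.121 and 0.611 ± 0.067 TPM in that order (SD, n = 3 each). In TPM the Tg-GRK2-labelled libraries, at 0.689 to 0.899, lay above FVB, at 0.549 to 0.682, without overlap. The log2 fold change was 1.71 ± 0.12 (SE) in Tg-RKIP against FVB (edgeR adjusted p = 1.78e-11) and 0.26 ± 0.14 (SE) in Tg-GRK2 against FVB, which did not pass the test (edgeR adjusted p = 0.202). The difference between the transgenic groups was itself past the threshold, at 1.45 ± 0.11 (SE, edgeR adjusted p = 1.21e-10). Dio1, the other activating deiodinase, was at 0 reads in every library.

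Cidea, the lipid droplet protein, had the highest level per transcript length of the 9 genes in Tg-RKIP, at 1066, 1377 and 1025 reads. The Tg-GRK2-labelled libraries held 498, 449 and 535 reads and FVB 500, 521 and 484, so that these groups overlapped. Its level was 56.6 ± 0.94 TPM in Tg-RKIP, 22.7 ± 0.78 TPM in the Tg-GRK2-labelled libraries and 23.8 ± 1.09 TPM in FVB (SD, n = 3 each). FVB hearts thus held more Cidea transcript per length than Tg-RKIP hearts held of Ucp1. The log2 fold change was 0.83 ± 0.04 (SE) in Tg-RKIP against FVB (edgeR adjusted p = 2.43e-13) and -0.12 ± 0.05 (SE) in Tg-GRK2 against FVB (edgeR adjusted p = 0.105). Its relative Cidec, a droplet protein of white adipocytes, rose more, by 2.90 in Tg-RKIP and 1.23 in Tg-GRK2 against FVB (edgeR adjusted p = 1.59e-17 and 5.82e-08). Cideb, the form of liver and gut, was 0.39 and 0.32 on the log2 scale without passing the test (edgeR adjusted p = 0.125 and 0.367). With scaling to library size alone Cideb was at 0.76 in Tg-RKIP against FVB (edgeR adjusted p = 0.00383).

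Slc36a2, the amino acid transporter, moved the other way. It was counted at 509, 637 and 422 reads in Tg-RKIP, at 870, 818 and 965 in the Tg-GRK2-labelled libraries and at 648, 790 and 607 in FVB. Its level was 11.8 ± 1.08, 18.8 ± 0.29 and 14.9 ± 0.99 TPM in that order (SD, n = 3 each), and no groups overlapped. Slc36a2 fell by 0.75 ± 0.06 (SE) on the log2 scale in Tg-RKIP against FVB (edgeR adjusted p = 1.24e-10) and rose by 0.28 ± 0.05 (SE) in Tg-GRK2 against FVB (edgeR adjusted p = 3.84e-04). Tg-RKIP lay below the Tg-GRK2-labelled libraries with a log2 fold change of -1.03 ± 0.06 (SE, edgeR adjusted p = 2.03e-13). Its relative Slc36a4 fell by 0.17 in Tg-RKIP against FVB (edgeR adjusted p = 0.0347), and was at 0.21 with scaling to library size alone (edgeR adjusted p = 0.00895), so its direction depends on the scaling. Slc36a1 did not pass the test in either comparison with FVB, but was at 0.33 in Tg-RKIP with scaling to library size alone (edgeR adjusted p = 2.43e-05). Slc36a3 was at 0 reads in every library.

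Pank1, the pantothenate kinase, held 1268, 1459 and 1180 reads in Tg-RKIP, 2028, 1903 and 2278 in the Tg-GRK2-labelled libraries and 1983, 2162 and 1787 in FVB. Tg-RKIP lay below both other groups, which overlapped. Its level was 23.9 ± 1.66, 30.9 ± 0.14 and 31.6 ± 1.37 TPM in that order (SD, n = 3 each). Pank1 fell by 0.97 ± 0.04 (SE) on the log2 scale in Tg-RKIP against FVB (edgeR adjusted p = 1.07e-15), while the log2 fold change was -0.03 ± 0.04 (SE) in Tg-GRK2 against FVB (edgeR adjusted p = 0.617). Of its relatives in Tg-RKIP against FVB, Pank4 and Pank3 fell by 1.09 and 0.58 and Pank2 rose by 0.15 (edgeR adjusted p = 9.34e-16, 1.66e-11 and 0.00898). Pank1 starts at alternative first exons. The transcript of the upstream start was at 2.48 ± 0.14 TPM in Tg-RKIP, 5.05 ± 0.21 TPM in the Tg-GRK2-labelled libraries and 4.74 ± 0.34 TPM in FVB. The 3 transcripts of the downstream start summed to 21.4 ± 1.55, 25.9 ± 0.32 and 26.9 ± 1.23 TPM in the same order (SD, n = 3 each). Both starts were lower in Tg-RKIP, as far as the deposited division of reads between transcripts allows.

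Prdm16, the fate regulator, held 233, 277 and 216 reads in Tg-RKIP, 441, 424 and 511 in the Tg-GRK2-labelled libraries and 302, 383 and 308 in FVB. Its level was 1.69 ± 0.29, 3.14 ± 0.36 and 2.36 ± 0.06 TPM in that order (SD, n = 3 each), again with no overlap. Prdm16 fell by 0.82 ± 0.07 (SE) on the log2 scale in Tg-RKIP against FVB (edgeR adjusted p = 4.82e-10) and rose by 0.38 ± 0.06 (SE) in Tg-GRK2 against FVB (edgeR adjusted p = 7.45e-05). The rise was not called by limma on log2(TPM + 0.1) (adjusted p = 0.0656) or on log2(TPM + 1) (adjusted p = 0.0513), and neither change was called when only the most abundant of its 13 transcripts was counted (edgeR adjusted p = 0.641 for the rise and 0.791 for the fall). Its closest relative Mecom did not pass the test in either comparison, with log2 fold changes of 0.06 in Tg-RKIP and -0.05 in Tg-GRK2 against FVB. With scaling to library size alone Mecom was at 0.44 in Tg-RKIP against FVB (edgeR adjusted p = 6.37e-07).

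The remaining 2 genes were close to the limit of counting. Elovl3 was counted at 10, 4 and 4 reads in Tg-RKIP, at 3, 0 and 5 in the Tg-GRK2-labelled libraries and at 1, 3 and 7 in FVB. Zic1 was counted at 1, 5 and 0, at 2, 2 and 1, and at 3, 1 and 0 reads in the same order. All groups overlapped for both genes. In exact two-sided permutation tests of the TMM-normalized counts, the smallest p of the 6 comparisons was 0.5 (1.0 after adjustment over the 6), where 3 libraries against 3 cannot go below 0.1. A change of Elovl3 or Zic1 was not detectable at this depth. Of the ELOVL family, Elovl6, which lengthens palmitate, rose by 0.73 in Tg-RKIP and 1.43 in Tg-GRK2 against FVB (edgeR adjusted p = 7.24e-06 and 1.91e-09). None of the 5 ZIC genes passed the filter.

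**Figure D2:**
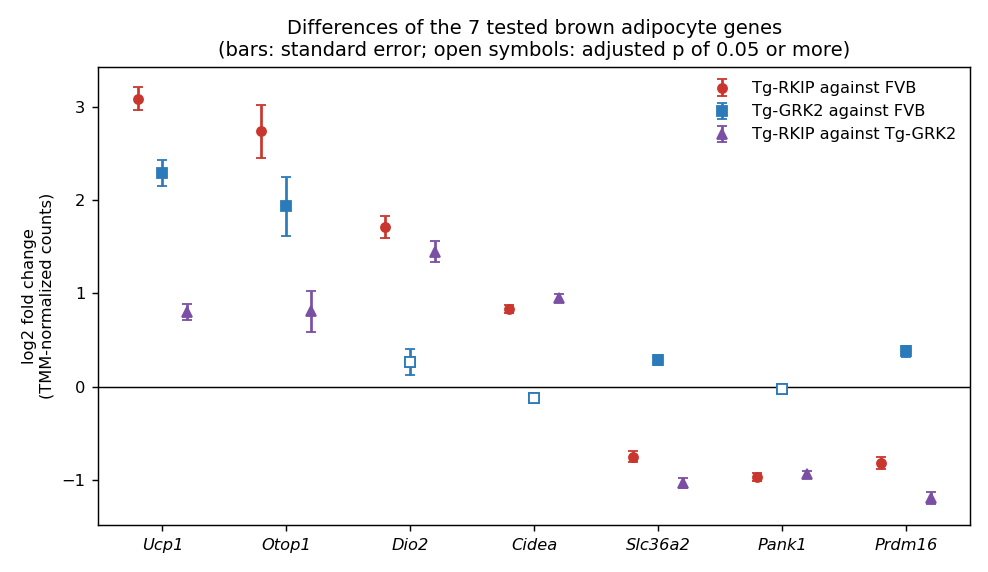
Log2 fold change of TMM-normalized counts (y axis) with its standard error for the 7 brown adipocyte genes tested, in Tg-RKIP against FVB, Tg-GRK2 against FVB and Tg-RKIP against Tg-GRK2 (3 libraries per group). Ucp1 and Otop1 lie above 0 in all 3 comparisons, Dio2 and Cidea pass the test only in those of Tg-RKIP, and Slc36a2, Pank1 and Prdm16 lie below 0 in Tg-RKIP; open symbols have an adjusted p of 0.05 or more.

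Ucp1 therefore rose with 3 of the 6 other genes tested in Tg-RKIP hearts, and by very different amounts, from 1.78-fold for Cidea over 3.27-fold for Dio2 and 6.67-fold for Otop1 to 8.47-fold for Ucp1. In the Tg-GRK2-labelled libraries it rose with Otop1, while Prdm16 and Slc36a2 rose by 1.30-fold and 1.22-fold and Cidea and Dio2 did not pass the test. Reads of Ucp1 per 100 reads of Cidea in the same library, a ratio that does not depend on how libraries are scaled, came to 36.0, 34.1 and 34.5 in Tg-RKIP, 41.2, 41.0 and 34.4 in the Tg-GRK2-labelled libraries, and 5.40, 8.83 and 7.64 in FVB. The transgenic groups overlapped in this ratio and both lay above FVB. The exact two-sided permutation p was 0.1 for each transgenic group against FVB, the smallest that 3 against 3 can give, and 0.3 between the transgenic groups (adjusted over 6 tests of ratios, 0.15 and 0.3).

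The same ratio was taken to Adipoq, the adipocyte hormone adiponectin, which marks white and brown adipocytes alike. Adipoq itself was counted at 580 to 811 reads in Tg-RKIP, at 142 to 160 in the Tg-GRK2-labelled libraries and at 66 to 78 in FVB. Ucp1 reads per 100 Adipoq reads came to 66.2, 57.8 and 57.4 in Tg-RKIP, 144, 119 and 115 in the Tg-GRK2-labelled libraries, and 40.9, 59.0 and 48.1 in FVB. Tg-RKIP and FVB overlapped (exact permutation p = 0.3), with means of 60.5 ± 4.97 and 49.3 ± 9.10 (SD, n = 3 each). The Tg-GRK2-labelled libraries, at 126 ± 16.0 (SD, n = 3), lay above both other groups (exact permutation p = 0.1, adjusted 0.15, for each). Relative to Adipoq, Otop1 was likewise highest in the Tg-GRK2-labelled libraries, at 19.0 ± 3.88 reads per 100, while Tg-RKIP at 9.17 ± 0.06 lay within the spread of FVB at 9.42 ± 3.09 (SD, n = 3 each). Dio2 and Cidea were lower relative to Adipoq in Tg-RKIP than in FVB, at 38.8 to 46.7 against 81.8 to 109 for Dio2 and at 166 to 184 against 629 to 758 for Cidea. The Tg-GRK2-labelled libraries lay between them, at 47.1 to 69.7 for Dio2 and at 290 to 351 for Cidea, and no groups overlapped in these ratios, which were not tested. Per 100 Adipoq reads, FVB libraries held on average 928 reads of Slc36a2, 450 of Prdm16 and 2699 of Pank1. The means were 581, 301 and 1360 in the Tg-GRK2-labelled libraries and 78.2, 36.4 and 197 in Tg-RKIP. Which cells held these transcripts was not tested.

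**Figure D3:**
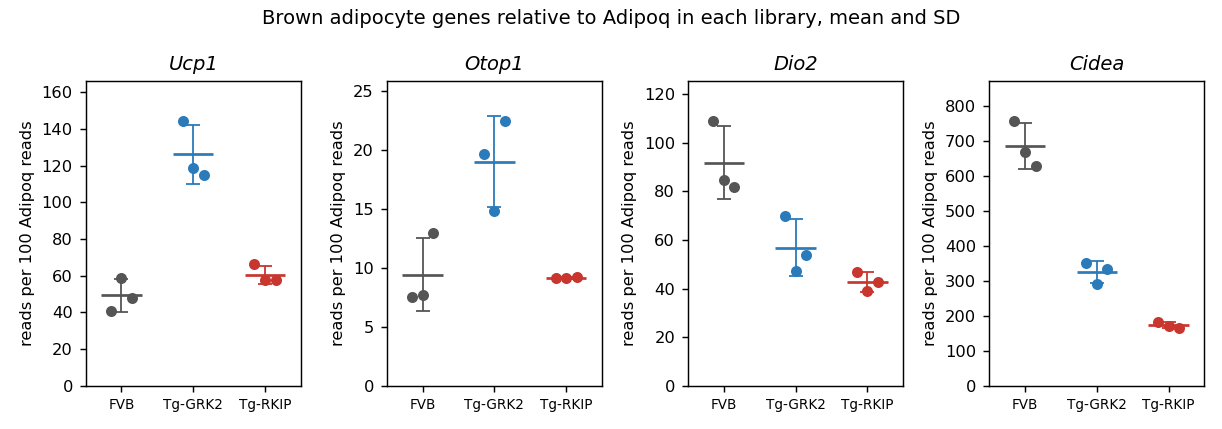
Reads of Ucp1, Otop1, Dio2 and Cidea per 100 Adipoq reads of the same library (y axis, from 0), with 1 point per library, the mean as a line and the SD as an error bar. For Ucp1 the FVB libraries at 40.9 to 59.0 overlap with the Tg-RKIP libraries at 57.4 to 66.2, while the Tg-GRK2-labelled libraries lie at 115 to 144, and for Cidea the ratio goes down from FVB over Tg-GRK2 to Tg-RKIP.

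Counts of the gene lists below stand beside 36.8% of all genes higher and 37.1% lower in Tg-RKIP against FVB. In Tg-GRK2 against FVB these shares were 12.2% each way. Among the other genes of the pathway, thermogenic signalling and fuel genes split evenly in Tg-RKIP against FVB, with 11 higher and 12 lower of 23 tested and a median log2 fold change of -0.06 (0.01 over all genes). The largest rises were those of Slc27a2, a fatty acid transporter, at 3.49, Adrb3 at 3.08 and Clstn3 at 2.70 (edgeR adjusted p = 2.08e-08, 1.80e-09 and 1.78e-10). The largest falls were those of the fatty acid dehydrogenase Acadm at -1.25, the droplet protein Plin5 at -1.03 and the lipase Lpl at -0.99. With scaling to library size alone, 5 of the 23 changed sign and the count became 15 higher and 6 lower. In Tg-GRK2 against FVB, 7 rose and 7 fell. Adrb3 rose there by 2.55 and Clstn3 by 1.26 (edgeR adjusted p = 1.44e-06 and 7.67e-04), while Slc27a2 was at 1.17 without passing the test (edgeR adjusted p = 0.0966). Adrb3 was counted at 63, 75 and 61 reads in Tg-RKIP, at 43, 35 and 36 in the Tg-GRK2-labelled libraries and at 5, 9 and 4 in FVB, so that no groups overlapped. Slc27a2 held 57, 63 and 44, then 10, 8 and 9, and 6, 1 and 4 reads in the same order. The size of the changes of both genes rests on few FVB reads.

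Brown fat genes that heart muscle also uses, such as Cox7a1 of the respiratory chain, Cpt1b of fatty acid import and the coactivator Ppargc1a, were lower in Tg-RKIP in 14 of 15 cases (median log2 fold change -0.95). The lowest were Ucp3 at -2.21, Acot2 at -1.77 and Acadm at -1.25. The exception was Ucp2, the widely expressed uncoupling protein, which rose by 0.99 (edgeR adjusted p = 2.35e-17). Scaling to library size alone left 12 lower and 2 higher. In Tg-GRK2 against FVB 11 of the 15 were lower and none higher, with a median of -0.16. The family of Ucp1 was thus divided in Tg-RKIP, with Ucp1, Ucp2 and Slc25a14 higher and Ucp3, the form of muscle, lower. Its member Slc25a30 did not pass the test, but was at 0.27 with scaling to library size alone (edgeR adjusted p = 9.6e-04). On the TPM scale Ucp2 was at 158 ± 3.14, 59.2 ± 1.68 and 62.1 ± 2.51 and Ucp3 at 5.41 ± 0.52, 14.1 ± 0.58 and 18.7 ± 0.94 in Tg-RKIP, the Tg-GRK2-labelled libraries and FVB (SD, n = 3 each).

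Regulators of brown fate were mixed in Tg-RKIP against FVB, with 8 higher and 7 lower of 17 tested (10 and 5 with scaling to library size alone). Cebpa, an adipocyte transcription factor, rose by 1.62 and Foxc2 by 1.41, while Ppara fell by 2.39 and Ppargc1a by 1.24 on the log2 scale. Of the 8 genes tested from a list for beige adipocytes, the inducible thermogenic cells of white depots, 6 rose and none fell (36.8% and 37.1% of all genes), with a median of 0.78. The largest rises were those of Slc7a10 at 2.94 and Cited1 at 1.78 (edgeR adjusted p = 4.55e-07 and 9.54e-04). Slc7a10 is better known as a marker of white adipocytes, so the 6 are not beige markers alone. In Tg-GRK2 against FVB none of the 8 passed the test, and 2 regulators of 17 rose and 3 fell.

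White adipocyte genes rose in 20 of 25 cases in Tg-RKIP against FVB and fell in 5, with a median log2 fold change of 1.40, and this list shares Plin1, Lipe, Pnpla2, Pparg and Cebpa with those above. Cfd (adipsin) led at 3.12, before Cidec at 2.90 and Adipoq at 2.81, the last 2 chosen by the study on these samples. Plin4 was among those that fell, and was at -0.60 with scaling to library size alone (edgeR adjusted p = 1.16e-16). In Tg-GRK2 against FVB 13 rose and 4 fell, with a median of 0.44, Adipoq at 0.95 and Cidec at 1.23 (edgeR adjusted p = 1.08e-06 and 5.82e-08). The summed level of the 25 genes was 2212 to 2225 TPM in Tg-RKIP, 1468 to 1496 TPM in the Tg-GRK2-labelled libraries and 1463 to 1472 TPM in FVB, and none was at 0. In Tg-RKIP most white adipocyte markers thus rose with Ucp1. In Tg-GRK2 against FVB 13 of the 25 did, while 4 fell, 8 did not pass the test and the summed levels overlapped. The part of these markers in the rise of Ucp1 was not tested.

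**Figure D4:**
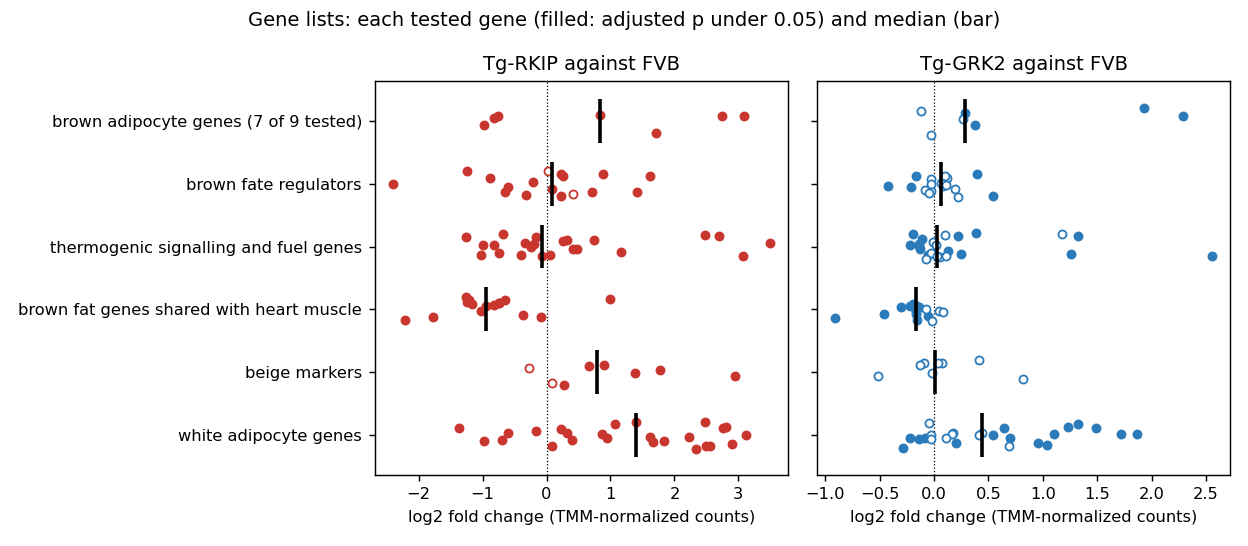
Log2 fold change of TMM-normalized counts (x axis) of each tested gene of 6 lists (rows) in Tg-RKIP against FVB and Tg-GRK2 against FVB, with filled points at an adjusted p under 0.05, open points at 0.05 or more and the median of the list as a bar. In Tg-RKIP the white adipocyte median lies at 1.40 and that of brown fat genes shared with heart muscle at -0.95, with the 7 tested brown adipocyte genes on both sides of 0.

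Markers of other tissues that could be attached to a heart also differed between the groups. The 12 lung and airway markers, of which 6 passed the expression filter, summed to 96.3 to 102 TPM in Tg-RKIP, 204 to 212 TPM in the Tg-GRK2-labelled libraries and 0.479 to 0.873 TPM in FVB, where 7 of them were at 0. The 6 that passed were genes of the airway secretory epithelium. The surfactant genes of the alveoli on the list, Sftpa1, Sftpb, Sftpc and Sftpd, did not pass. Scgb1a1, the secretoglobin of airway club cells, was counted at 388 to 510 reads in Tg-RKIP, at 1085 to 1284 in the Tg-GRK2-labelled libraries and at 0 in each FVB library. The counts of the other lists are to be read beside the 36.8% of all genes higher and 37.1% lower in Tg-RKIP, and 12.2% each way in Tg-GRK2, against FVB. Of 9 mesothelium markers, 8 rose and 1 fell in Tg-RKIP, and 6 rose and none fell in Tg-GRK2 against FVB. The fall, that of Muc16 by 0.27 on the log2 scale, became 0.11 with scaling to library size alone. The list had summed levels of 96.7 to 100.5, 45.1 to 49.3 and 35.2 to 38.5 TPM in Tg-RKIP, the Tg-GRK2-labelled libraries and FVB. Of 12 thymus markers 5 were tested, and 4 rose in Tg-RKIP and none in Tg-GRK2 against FVB, with no fall in either. Their sums were low, at 6.31 to 7.54, 2.29 to 2.82 and 3.04 to 3.19 TPM in that order, with Rag2 at 0 in every library. Of 14 skeletal muscle markers 6 were tested, and 3 rose and 1 fell in Tg-RKIP (3 and 0 with scaling to library size alone), and 1 rose and none fell in Tg-GRK2 against FVB. They summed to 34.5 to 40.2, 17.5 to 18.1 and 14.2 to 17.7 TPM, with Myf5 at 0 in every library. Of 11 neuron markers 7 were tested, and 3 rose and 1 fell in Tg-RKIP (5 and 1 with scaling to library size alone), and 2 rose and none fell in Tg-GRK2 against FVB. They summed to 24.3 to 24.5, 16.7 to 19.6 and 13.0 to 13.5 TPM. The part of these tissues in the levels of Ucp1 and Otop1 was not tested. Cardiac identity was plain in all groups, with 12 cardiomyocyte markers at sums of 77843 to 79317 TPM in Tg-RKIP, 60590 to 62355 TPM in the Tg-GRK2-labelled libraries and 62880 to 63297 TPM in FVB. Of these 12, 4 rose and 7 fell in Tg-RKIP against FVB (6 and 6 with scaling to library size alone). In Tg-GRK2 against FVB 5 rose and 7 fell.

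The pattern of Ucp1 over the 9 libraries was most like that of Adrb3, by the root mean square difference of centred log2 TMM-normalized CPM (0.22, Pearson's r = 0.99 over the 9 libraries of 3 groups). The next genes were Pck1, Tmem45b, Ighj2, Otop1, Pax5, Jchain, Slpi, Kng2 and Acvr1c, with differences of 0.31 to 0.40. Pck1 of glyceroneogenesis and Acvr1c are expressed in adipocytes, Pax5, Jchain and Ighj2 are B cell and plasma cell genes, and Slpi is a secreted epithelial inhibitor. Ighj2, Pax5 and Kng2 rest on 0 to 3 reads per FVB library. Of the 9 brown adipocyte genes, Otop1 was rank 5 among all genes in this likeness to Ucp1, Dio2 rank 304 and Cidea rank 2105, while Slc36a2, Prdm16 and Pank1 were ranks 13559, 13775 and 14363. The libraries fall into 3 groups, so these values describe the order of the groups more than single hearts.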

How the data were processed

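The authors deposited whole-number read counts per transcript without normalization, and TPM values per transcript, for 127558 transcripts in 9 libraries. The aligner and the counting program are not given in the sources used here. The deposited TPM equal those recomputed from counts and transcript lengths within 5.50e-06. Counts and TPM were summed by gene name and tested in R 4.3.3 with edgeR 4.0.16 (TMM, filterByExpr, glmQLFit and glmQLFTest, a mean per group over all 9 libraries), with Benjamini-Hochberg adjustment over 15504 genes and a threshold of 0.05. Ratios of reads and genes below the filter were compared by exact permutation tests in SciPy 1.17.1. The test was checked on simulated data. Libraries count as replicates as their labels number them. No 2 libraries were identical or differed only by sampling noise, with a chi-square per degree of freedom of 1.72 to 23.2 within groups. The common biological coefficient of variation, edgeR's estimate of the spread beyond counting noise, was 2.86%. The labels number replicates without naming animals, and the study gives 3 mice per group for Tg-RKIP and FVB. The p-values measure the spread between these libraries.

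The 9 genes, the gene lists and the tests were chosen with earlier results of these data known. All 9 genes are named. Of each list the 3 largest and 3 smallest log2 fold changes in Tg-RKIP against FVB may be named, with close relatives of the 9 genes, the 10 genes most like Ucp1, and Pebp1 and Grk2 as checks of the labels. The lists were brown fate regulators, thermogenic signalling and fuel genes, brown fat genes shared with heart muscle, beige, white adipocyte, skeletal muscle, thymus, lung and airway, mesothelium, neuron and cardiomyocyte markers, and the families of the 9 genes. Cox7a1, Cpt1b, Scgb1a1, Muc16 and the surfactant genes are named outside this rule, after their values were seen. Alternatives were DESeq2 1.42.0 and its size factors, scaling to library size, other filters, a replicate block, only the groups compared, limma 3.58.1 on log2(TPM + 0.1) or log2(TPM + 1) with genes kept from 1 TPM in 3 libraries, the most abundant transcript, a fold change of at least 1.5 (glmTreat), and each library left out. Promoter windows came from RefSeq on GRCm38.p6.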

Additional observations from a re-analysis of the deposited data

How the results depend on the processing

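Under the alternatives, Ucp1 kept its direction and its call in all 3 comparisons, with log2 fold changes of 2.74 to 3.46 in Tg-RKIP against FVB and 1.69 to 2.30 in Tg-GRK2 against FVB, and of 2.92 to 3.21 and 2.13 to 2.41 with 1 library left out. The 7 genes called in Tg-RKIP against FVB became 6 with the most abundant transcript, and no left-out library changed a count of called genes. The 4 genes called in Tg-GRK2 against FVB became 2 (Ucp1 and Otop1) against a minimum fold change of 1.5, because Slc36a2 and Prdm16 moved by less. Pank1 in Tg-GRK2 against FVB, which did not pass the test, turned from -0.03 to 0.26 with the most abundant transcript (edgeR adjusted p = 0.280), and the cause was not tested. Over all genes, the 3793 calls of Tg-GRK2 against FVB became 2060 with limma on log2(TPM + 0.1) without a filter, 1660 with the most abundant transcript and 155 with a fold change of at least 1.5, which also took the 11460 calls of Tg-RKIP against FVB to 3665 and the 11551 of Tg-RKIP against Tg-GRK2 to 3867.

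Replicate numbers did not pair the libraries. Deviations of same-numbered libraries from their group means correlated at -0.05 to 0.05 over 9 pairs, and those of different numbers at -0.06 to 0.03 over 18. With the replicate number as a block, the counts of called genes stayed at 7, 4 and 7 of the 7 tested in Tg-RKIP against FVB, Tg-GRK2 against FVB and Tg-RKIP against Tg-GRK2, and 11401, 3660 and 11491 of all genes were called.

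The ratio of Ucp1 to Adipoq was 0.29 higher on the log2 scale in Tg-RKIP than in FVB, and 0.18 to 0.44 higher with 1 library left out. With Cidea as the denominator, an alternative chosen after seeing the data, it was 2.26 higher, so the answer depends on the gene that Ucp1 is set against. A design of 3 against 3 cannot pass the threshold in these ratio tests. Depth limits Elovl3 and Zic1, which without the filter had adjusted p of 0.381 or more in edgeR and 0.231 or more in limma.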
